A study of Homo sapiens with 3 samples.

Results

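The extracellular matrix genes described here encode secreted glycoproteins, laminin chains, elastic fibre proteins, proteoglycans and the enzymes that modify or cut the matrix, without the collagens. The set was a fixed list of 56 gene symbols, and all 56 were found among the 50868 genes of the deposited table. They were followed in 3 RNA sequencing libraries of HGC-27 cells, a human line that grew out of an undifferentiated stomach cancer. Each library came from cells at passage 6, taken 48 h after transfection: 1 received a control siRNA (n.c.), 1 an siRNA against IRF3 (siIRF3) and 1 an siRNA against YAP (siYAP). IRF3 switches on interferon genes when a cell senses a virus, and YAP is a coactivator of transcription that Hippo signalling holds back. Since each condition has 1 library, differences have no replicate check, and neither tests nor p-values are given. All values below describe these libraries, and sets of 3 values are given in the order control, IRF3 siRNA, YAP siRNA. Pairs of ratios to control are given with IRF3 siRNA first unless named otherwise. All 3 libraries are of 1 cell line, so nothing here extends to other gastric cancer cells.

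The matrix is built from proteins that cells secrete and then assemble outside. Laminins are trimers of an alpha, a beta and a gamma chain, and with nidogens, perlecan and agrin they form the basement membrane. Fibrillins, fibulins and elastin make microfibrils and elastic fibres, and fibronectin and periostin tie collagen fibres to cells. Inside the cell, lysyl and prolyl hydroxylases and the chaperone HSP47 prepare collagen. Outside it, lysyl oxidases crosslink the fibres, metalloproteinases cut them and TIMP proteins inhibit the metalloproteinases. YAP is known to respond to the stiffness of the matrix and to act on matrix genes together with TEAD transcription factors.

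The libraries held 13949401, 14941556 and 14385959 counts assigned to genes. YAP1 stood at 5.89, 3.58 and 2.23 FPKM (fragments per unit of gene length and of library total), and its log2 ratio to control was -1.09 with YAP siRNA, which became -0.92 when a trend in 3 properties (level, exon length and GC content) was removed. IRF3 stood at 3.55, 2.90 and 3.86 FPKM, with a log2 ratio of -0.22 with IRF3 siRNA (-0.32 with the trend removed). The library labelled IRF3 siRNA is thus only weakly checked by its own target. YAP1 also stood below control in that library, at a log2 ratio of -0.59 (-0.37 with the trend removed), so both siRNA libraries were low in YAP1. The part of YAP1 in the results with IRF3 siRNA was not tested. IRF3 shares exon sequence with BCL2L12, and reads of such neighbours may be mixed because no strand setting is given. Of 8 epithelial marker genes, 1 (CLDN7) reached 1 FPKM and their summed level was 2.93, 3.13 and 3.69 FPKM, although the label calls these gastric cancer cells. EPCAM (0.0837, 0.109 and 0.162 FPKM), CDH1 (0.0297, 0.00925 and 0.0192) and KRT19 (0.0502, 0.0156 and 0.0487) were near 0. Of 10 fibroblast marker genes, none of them in the set, 9 reached 1 FPKM in each library, with summed levels of 891, 768 and 803 FPKM. COL3A1 (561, 475 and 517 FPKM) and COL1A1 (266, 229 and 222) made up most of that sum. Its members did not move together: THY1 had the largest difference, in the other direction, at 7.03, 14.5 and 8.88 FPKM. Ratios below 0 were found for 7 of the 9 measured markers in each comparison with control. Among all genes with a mean of at least 1 FPKM, 53.9% (IRF3 siRNA) and 53.4% (YAP siRNA) had ratios below 0. The part of this marker list in the matrix results was not tested, and in such bulk RNA fewer cells of a type and less RNA per cell cannot be told apart. The 6 leukocyte markers summed to 1.28, 1.86 and 1.12 FPKM, with CD3E at 0 counts in the control and YAP siRNA libraries, and the 5 endothelial markers summed to 0.262, 0.295 and 0.259 FPKM.

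Of the 56 matrix genes, 38 had a mean of at least 1 FPKM over the 3 libraries and were measured well enough to compare. In the plot of levels by gene they run from about 1 FPKM for ADAMTS1, a secreted protease, to more than 100 FPKM for SERPINH1, the gene of HSP47. FPKM are per length, so levels can be set beside each other between genes, but only roughly. The length implied by the deposited FPKM differs from the exon length by a factor that varies between genes. For FN1 it was 30.7 kb beside 17.3 kb, for BGN 5.26 beside 2.45 and for LAMA2 11.3 beside 10.4. Rankings of levels and sums over genes hold on the deposited scale. SERPINH1 stood at 110, 117 and 127 FPKM and PCOLCE, which enhances the cutting of procollagen, at 105, 118 and 113. BGN (the proteoglycan biglycan), EMILIN1 (an elastic fibre glycoprotein), MMP14 (a membrane-bound metalloproteinase), MFAP4, FBLN1, AGRN and SPARC all had control levels between 59.5 and 80.6 FPKM. In all, 10 genes had a mean of at least 50 FPKM, 25 of at least 10, and 13 between 1 and 10. The remaining 18 were below the filter, and 9 of them stayed under 0.1 FPKM in every library: TGFBI, THBS2, LAMA4, LAMB3, NID2, MFAP2, MFAP5, EFEMP1 and VCAN. The other 9 were SPP1, NID1, FBN1, FBLN2, EFEMP2, ELN, LOXL3, MMP1 and ADAMTS12, of which LOXL3 reached the highest level, 0.813 FPKM with YAP siRNA. MMP1, the interstitial collagenase, had 0, 0 and 3 counts, no more than the 3 counts that a count of 0 allows. NID2 had 5, 4 and 0 counts. The 56 genes together took 1.148% of all counts in the control (Wilson 95% interval 1.143 to 1.154), 1.069% with IRF3 siRNA (1.064 to 1.074) and 1.082% with YAP siRNA (1.077 to 1.088), intervals that cover counting error only.

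**Figure D1:**
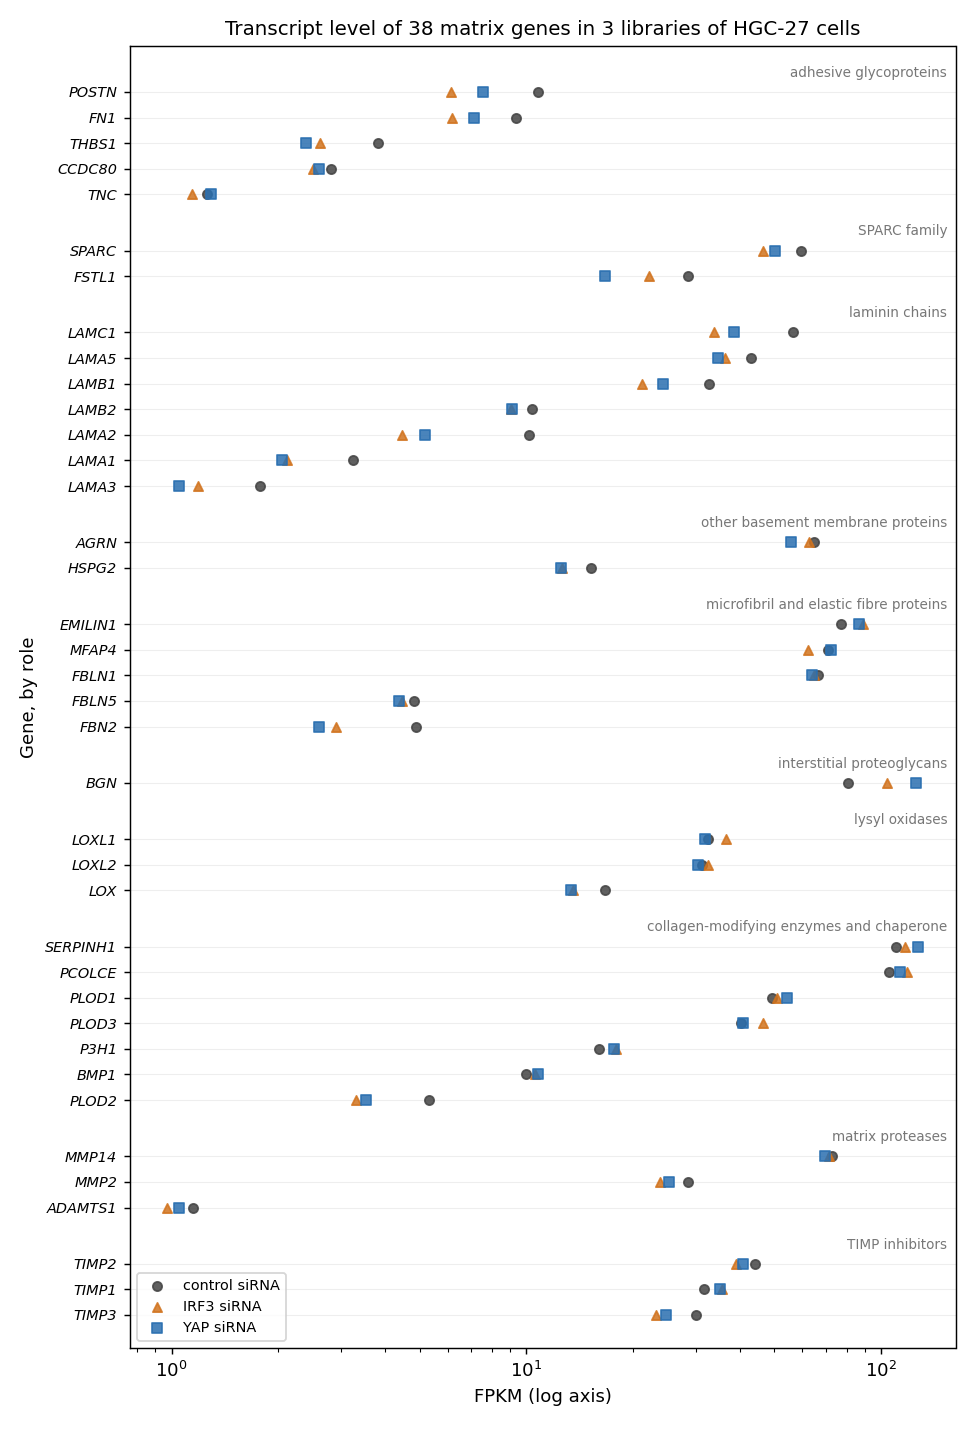
Level of the 38 matrix genes with a mean of at least 1 FPKM, grouped by role, in the control siRNA (circles), IRF3 siRNA (triangles) and YAP siRNA (squares) libraries, as FPKM on a log axis. Each point is 1 library. The circles of the laminin chains all lie to the right of the other symbols, while BGN has its lowest value in the control, 80.6 FPKM.

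Against control, matrix genes of the structural kind stood mostly lower in both siRNA libraries, with every measured laminin chain below control, while most collagen-modifying enzymes stood slightly higher on the deposited scale. A gene was called at a 2-fold log2 ratio of FPKM plus 1, a scale that understates the change of low genes. By this rule 1 of the 38 was lower with IRF3 siRNA (LAMA2) beside 0.612% of all 11103 genes tested, and 0 were higher beside 0.387%. With YAP siRNA 0 were lower beside 0.468% and 0 higher beside 0.351%. At 1.5-fold, 5 were lower with IRF3 siRNA (LAMA2, POSTN, LAMC1, LAMB1 and FBN2) beside 5.88% of all genes, and 0 were higher beside 1.59%. With YAP siRNA 3 were lower at 1.5-fold (LAMA2, FSTL1 and FBN2) beside 4.64%, and 1 was higher (BGN) beside 1.59%.

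Ratios lay below 0 for 27 of the 38 genes with IRF3 siRNA, where 53.9% of all genes did, and for 27 with YAP siRNA, where 53.4% did. The median log2 ratio was -0.18 (IRF3 siRNA) and -0.14 (YAP siRNA), beside -0.03 and -0.02 over all genes tested. Among them 22 structural and adhesive genes had medians of -0.30 and -0.28, in the same order, with 20 and 18 ratios below 0. The 16 enzymes, chaperones and inhibitors had medians of 0.06 and -0.03, with 7 and 9 below 0, but the second median was 0.06 with TMM-scaled counts and both were -0.10 once the trend in the 3 properties was taken out. Both comparisons use the same control library.

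**Figure D2:**
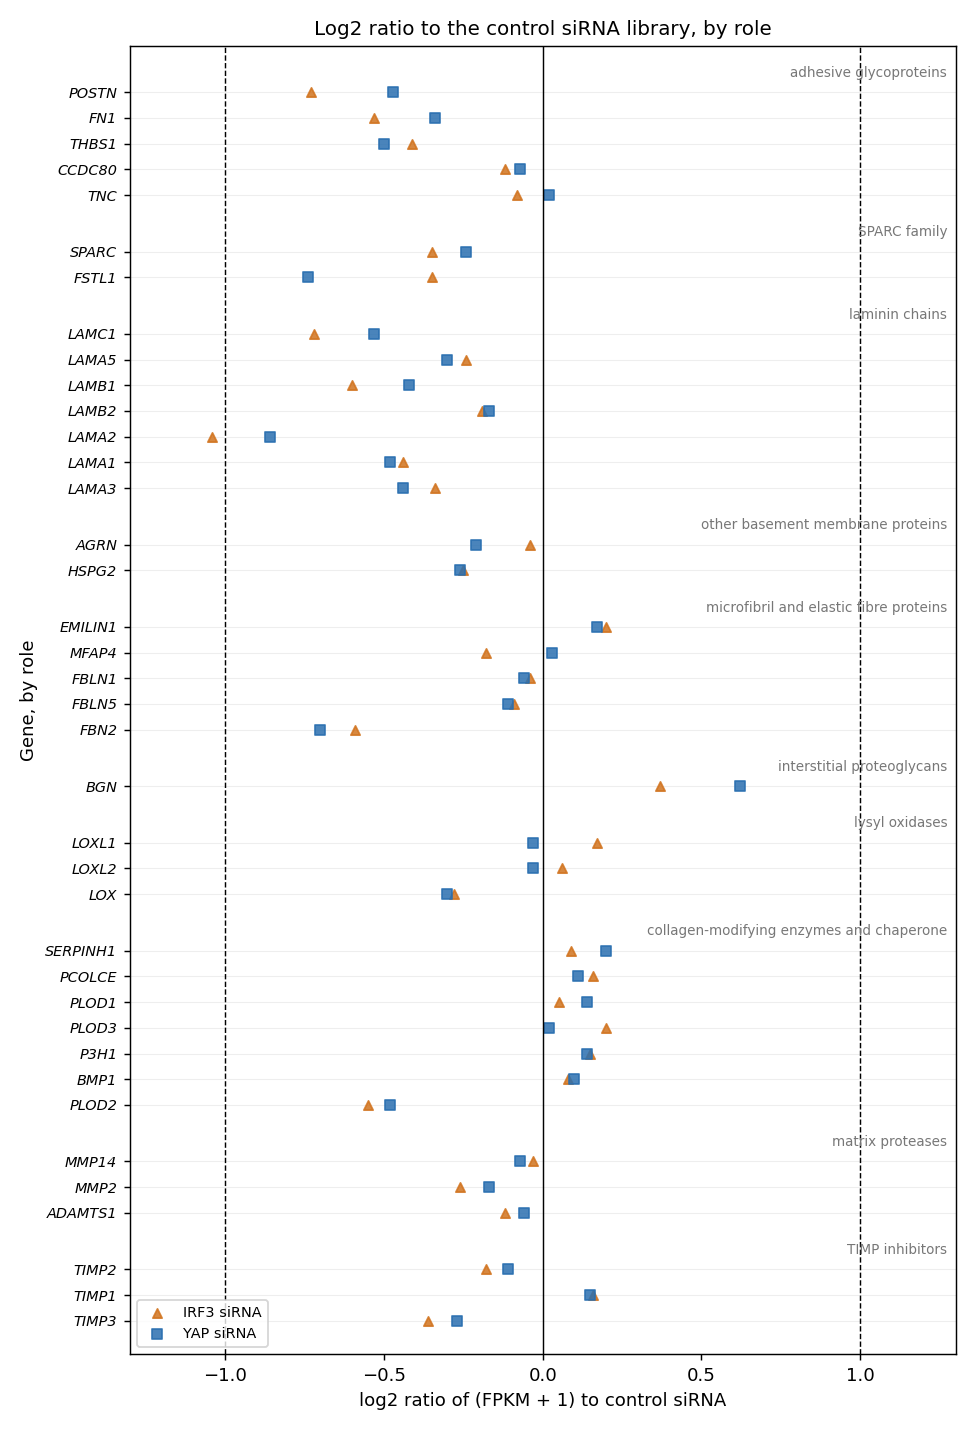
Log2 ratio of FPKM plus 1 to the control siRNA library for the 38 genes, grouped by role, with IRF3 siRNA (triangles) and YAP siRNA (squares). The solid line marks no difference and the dashed lines 2-fold, which LAMA2 alone passes, at -1.04 with IRF3 siRNA.

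The laminin chains had the lowest ratios among the larger structural groups. All 7 measured chains had ratios below 0 in each comparison with control, beside 53.9% (IRF3 siRNA) and 53.4% (YAP siRNA) of all genes. The group's medians were -0.44 (IRF3 siRNA) and -0.44 (YAP siRNA) (-0.50 and -0.46 with TMM-scaled counts, -0.25 and -0.22 with the trend removed). LAMA2 (ENSG00000196569, chromosome 6, 128883141 to 129516569, hg38), the alpha chain of the laminin of muscle and nerve basement membranes, stood at 10.2, 4.45 and 5.17 FPKM (1601, 748 and 837 counts). Its control level was the highest and the siRNA libraries lay close together. LAMA2 fell by 1.04 on the log2 scale with IRF3 siRNA, a count ratio of 0.436 (95% counting interval 0.399 to 0.476), and had a log2 ratio of -0.86 with YAP siRNA, a count ratio of 0.507 (0.466 to 0.551). With the trend removed the values were -0.78 and -0.63, so the gene no longer passed 2-fold with IRF3 siRNA. LAMA2 shares exon sequence with another deposited gene, and summed with it the ratios were -1.05 and -0.87.

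LAMC1 (ENSG00000135862, chromosome 1, 183023460 to 183145592), the one gamma chain of this list and part of most laminin trimers, stood at 56.4, 33.8 and 38.6 FPKM. Its log2 ratios were -0.72 with IRF3 siRNA (count ratio 0.599, interval 0.578 to 0.622) and -0.53 with YAP siRNA (0.685, 0.661 to 0.709). LAMB1, the widespread beta chain, stood at 32.7, 21.2 and 24.2 FPKM, with log2 ratios of -0.60 (count ratio 0.647, interval 0.621 to 0.674) and -0.42 (0.740, 0.711 to 0.770). LAMB1 shares exon sequence with DLD, and with the counts of overlapping genes summed the ratios were -0.54 and -0.37. LAMC1 and LAMB1 were thus highest in the control and lowest with IRF3 siRNA.

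LAMA5, the alpha chain of many adult basement membranes, was the most abundant alpha chain at 43.0, 36.2 and 34.6 FPKM. Its log2 ratios were -0.24 and -0.30, and -0.25 and -0.22 with the trend removed. LAMA5 shares exon sequence with ADRM1 and LAMA5-AS1, and with overlapping genes summed its ratio with YAP siRNA was -0.21. LAMB2 stood at 10.4, 9.03 and 9.12 FPKM (ratios -0.19 and -0.17), the smallest differences of the family on the deposited scale. With the trend removed LAMB2 had -0.25 and -0.17, and LAMA3 lay nearer 0 in both comparisons. LAMA1, the alpha chain of early embryonic laminin, stood at 3.25, 2.12 and 2.05 FPKM, with count ratios of 0.654 (0.589 to 0.725) and 0.631 (0.567 to 0.702). LAMA3, an alpha chain of epithelial laminin, stood at 1.78, 1.19 and 1.05 FPKM, with count ratios of 0.670 (0.576 to 0.779) and 0.592 (0.504 to 0.693). The ratios of LAMA1 and LAMA3 shrank most with the trend removed, to -0.13 and -0.02 with IRF3 siRNA and to -0.17 and -0.12 with YAP siRNA.

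Summed over the listed genes, alpha chains stood at 58.2, 44.0 and 43.0 FPKM, beta chains at 43.2, 30.2 and 33.4, and LAMC1, the gamma chain, at 56.4, 33.8 and 38.6. LAMA2 made up 17.5%, 10.1% and 12.0% of the alpha chain sum, while LAMA5 made up 73.8%, 82.3% and 80.5%. So on the deposited scale LAMA5 took a larger share of a smaller sum in both siRNA libraries. Among the partners of laminin in the basement membrane, HSPG2 (perlecan) stood at 15.2, 12.6 and 12.5 FPKM, with count ratios of 0.830 (0.795 to 0.867) and 0.822 (0.787 to 0.858), and log2 ratios of -0.25 and -0.26 that became -0.20 and -0.13 with the trend removed. AGRN (agrin) stood at 64.5, 62.8 and 55.8 FPKM, with log2 ratios of -0.04 (above 0 with TMM-scaled counts) and -0.21 (-0.09 and -0.17 with the trend removed), and count ratios of 0.973 (0.95 to 0.996) and 0.865 (0.844 to 0.886). NID1, a linker of laminin to type IV collagen, was under the filter at 0.797, 0.470 and 0.591 FPKM (68, 43 and 52 counts), with count ratios of 0.590 (0.393 to 0.878) and 0.742 (0.507 to 1.08).

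The RefSeq promoter table (GRCh38.p14, the same build) held 43 of the 56 genes, and the 250 bases before the start site were searched on both strands for GGAATG (TEAD factors), TGANTCA (AP-1), the interferon-stimulated response element (the site type of IRF factors), TATAAA and CCAAT. Among 29 promoters of genes measured here, GGAATG occurred in 3 (LAMA2, SPARC and THBS1), beside 11.9% of 27305 promoters. The interferon-stimulated response element occurred in 1 (POSTN, beside 3.07%), the AP-1 letters in 2 (LAMA3 and POSTN, beside 6.60%), TATAAA in 1 (POSTN, beside 11.1%) and CCAAT in 8 (beside 33.0%). The 27305 promoters were not limited to genes measured in these libraries, so their shares are not a like baseline. The matches are descriptions of letters and not of binding, and none of these data measure binding. Shown here are the windows of LAMA2 (chr6:128882888-128883137, plus strand), which had the lowest ratio, of LAMC1 (chr1:183023170-183023419, plus strand) and LAMA5 (chr20:62367313-62367562, minus strand), which hold none of the searched letters, and of THBS1 (chr15:39580829-39581078, plus strand), which had the same TEAD letters. Each of these windows lies outside the deposited gene span and outside annotated exons. Most windows of the 43 genes overlap the one or the other, among them those of LAMA3, POSTN and SPARC. The counts of matches therefore do not cover upstream sequence alone. Sequences run 5' to 3' toward the start site, and capitals mark the matches: GGAATG beginning 167 bases before the start site in LAMA2 and 46 bases before it in THBS1, and ATTGG, the reverse complement of CCAAT, in THBS1.
LAMA2: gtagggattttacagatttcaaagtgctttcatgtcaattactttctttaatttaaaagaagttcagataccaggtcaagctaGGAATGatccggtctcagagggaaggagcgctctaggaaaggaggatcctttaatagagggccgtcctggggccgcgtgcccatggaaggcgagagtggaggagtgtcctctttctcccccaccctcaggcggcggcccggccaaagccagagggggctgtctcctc
LAMC1: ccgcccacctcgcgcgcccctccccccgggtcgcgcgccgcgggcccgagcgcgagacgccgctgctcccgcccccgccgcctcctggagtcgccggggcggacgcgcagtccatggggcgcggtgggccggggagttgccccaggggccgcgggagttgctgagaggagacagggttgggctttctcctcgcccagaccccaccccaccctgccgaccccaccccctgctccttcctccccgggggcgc
LAMA5: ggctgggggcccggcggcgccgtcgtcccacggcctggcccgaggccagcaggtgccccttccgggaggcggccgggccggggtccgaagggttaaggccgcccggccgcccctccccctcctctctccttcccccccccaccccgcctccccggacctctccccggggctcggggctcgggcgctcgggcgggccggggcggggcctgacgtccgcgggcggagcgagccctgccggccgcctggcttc
THBS1: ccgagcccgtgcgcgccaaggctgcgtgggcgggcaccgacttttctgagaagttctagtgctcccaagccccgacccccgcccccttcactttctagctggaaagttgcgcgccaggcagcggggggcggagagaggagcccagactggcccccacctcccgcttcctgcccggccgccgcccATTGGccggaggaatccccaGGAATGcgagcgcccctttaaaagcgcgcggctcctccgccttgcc
The windows of LAMC1 and LAMA5 consist of G and C for 79.6% and 82.8% of bases, those of LAMA2 and THBS1 for 53.2% and 69.6%.

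Of the 8 adhesive glycoproteins, 5 were measured, and their medians were -0.41 (IRF3 siRNA) and -0.34 (YAP siRNA) (-0.14 and -0.08 with the trend removed). Periostin is encoded by POSTN (ENSG00000133110, chromosome 13, 37562583 to 37598844), which had 1691, 1027 and 1218 counts, or 10.8, 6.14 and 7.57 FPKM. The log2 ratios were -0.73 with IRF3 siRNA (count ratio 0.567, interval 0.524 to 0.613) and -0.47 with YAP siRNA (0.698, 0.648 to 0.752), and with the trend removed -0.58 and -0.36. FN1, fibronectin, stood at 9.33, 6.16 and 7.14 FPKM, with ratios of -0.53 (count ratio 0.660, interval 0.629 to 0.693) and -0.34 (0.765, 0.730 to 0.802) that became -0.25 and -0.08 with the trend removed. THBS1, thrombospondin and a known YAP target, stood at 3.81, 2.62 and 2.39 FPKM, with count ratios of 0.689 (0.610 to 0.779) and 0.627 (0.552 to 0.712). The log2 ratios of THBS1 were -0.41 and -0.50, and -0.14 and -0.27 with the trend removed. POSTN and FN1 were lowest with IRF3 siRNA and THBS1 with YAP siRNA.

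The remaining adhesive genes differed little. CCDC80 stood at 2.81, 2.50 and 2.61 FPKM, and TNC, the gene of tenascin, at 1.26, 1.14 and 1.29. The counting interval of CCDC80 lay below 1 with IRF3 siRNA (count ratio 0.89, interval 0.797 to 0.994) and included 1 with YAP siRNA (0.835 to 1.04). The counting interval of TNC included 1 in both comparisons (0.756 to 1.07 with IRF3 siRNA and 0.864 to 1.21 with YAP siRNA). With the trend removed both had ratios above 0, at 0.24 and 0.26 for CCDC80 and at 0.07 and 0.20 for TNC. SPP1, osteopontin, was under the filter at 0.506, 0.428 and 0.545 FPKM.

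SPARC and FSTL1 encode related secreted proteins that carry a follistatin-like domain, and they differed in which siRNA library was lowest. SPARC, which binds collagen, stood at 59.5, 46.3 and 50.2 FPKM, with log2 ratios of -0.35 with IRF3 siRNA (count ratio 0.778, interval 0.75 to 0.808) and -0.24 with YAP siRNA (0.844, 0.813 to 0.875). FSTL1 (ENSG00000163430, chromosome 3, 120392293 to 120451253) had 4371, 3629 and 2640 counts, or 28.6, 22.1 and 16.7 FPKM. It was lowest with YAP siRNA, at a log2 ratio of -0.74 (count ratio 0.586, interval 0.558 to 0.615), against -0.35 with IRF3 siRNA (0.775, 0.742 to 0.810). With the trend removed FSTL1 had -0.60 with YAP siRNA and -0.19 with IRF3 siRNA. In the direct comparison of IRF3 with YAP siRNA, which leaves out the control, its log2 ratio was 0.38, the highest of the 38 genes.

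**Figure D3:**
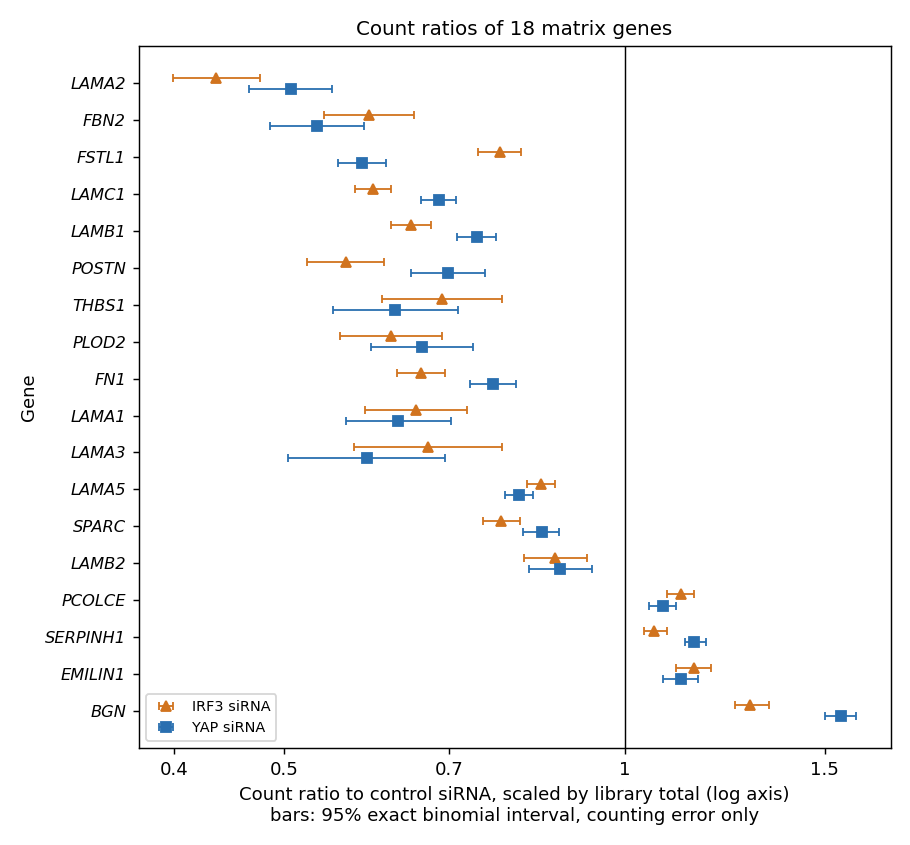
Count ratios to the control siRNA library, scaled by library total, for 18 of the genes, chosen after their values were seen, with IRF3 siRNA (triangles) and YAP siRNA (squares), on a log axis. Bars are exact binomial 95% intervals and cover counting error only. LAMA2 is leftmost, at 0.436 and 0.507, and BGN rightmost, at 1.29 and 1.55.

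Among microfibril and elastic fibre genes 5 of 12 were measured. FBN2 (ENSG00000138829, chromosome 5, 128257909 to 128659185), the fibrillin of developing tissues, had 1227, 782 and 677 counts, or 4.88, 2.90 and 2.61 FPKM. The log2 ratios were -0.59 with IRF3 siRNA (count ratio 0.595, interval 0.543 to 0.651) and -0.70 with YAP siRNA (0.535, 0.486 to 0.588). With the trend removed FBN2 had -0.29 and -0.42, and summed with the overlapping SLC27A6 -0.56 and -0.66. FBN1, the fibrillin of adult microfibrils, was under the filter at 0.452, 0.206 and 0.257 FPKM, from 121, 59 and 71 counts, with count ratios of 0.455 (0.328 to 0.626) and 0.569 (0.418 to 0.769). EFEMP2, a fibulin also under the filter, had 54, 40 and 27 counts, with count ratios of 0.692 (0.448 to 1.06) and 0.485 (0.294 to 0.783).

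The abundant genes of this group lay near their control level. FBLN1, fibulin, stood at 66.4, 64.5 and 63.9 FPKM, with log2 ratios of -0.04 and -0.06 that were above 0 with TMM-scaled counts and at -0.16 and -0.11 with the trend removed. FBLN5 stood at 4.81, 4.46 and 4.37 FPKM, and its counting intervals included 1 (0.825 to 1.04 and 0.806 to 1.02). MFAP4, a microfibril-associated glycoprotein, stood at 70.8, 62.3 and 72.0 FPKM, lowest with IRF3 siRNA (log2 ratio -0.18, and -0.43 with the trend removed, with a count ratio of 0.880, interval 0.839 to 0.924), while with YAP siRNA its log2 ratio was 0.03, or -0.19 with the trend removed. EMILIN1 stood at 77.3, 88.8 and 86.8 FPKM, above control on the deposited scale (log2 ratios 0.20 and 0.17, count ratios 1.15, interval 1.11 to 1.19, and 1.12, 1.08 to 1.16) but at 0.00 and 0.02 with the trend removed. ELN, elastin, was under the filter at 0.612, 0.684 and 0.742 FPKM.

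BGN (ENSG00000182492, chromosome X, 153494939 to 153509554), a small leucine-rich proteoglycan of the interstitial matrix, ran the other way. It had 5911, 8186 and 9436 counts, or 80.6, 104 and 125 FPKM, lowest in the control and highest with YAP siRNA. Its log2 ratios were 0.37 with IRF3 siRNA (count ratio 1.29, interval 1.25 to 1.34) and 0.62 with YAP siRNA (1.55, 1.5 to 1.6). With TMM-scaled counts they were 0.47 and 0.72, and with the trend removed 0.07 and 0.39. VCAN, the large proteoglycan versican, was near 0, with 2, 3 and 4 counts.

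The enzymes that prepare collagen inside the cell and its extracellular helpers were all measured (7 of 7), and 6 of 7 ratios were above 0 in each comparison with control. Of all 11103 genes tested, 5121 (IRF3 siRNA) and 5168 (YAP siRNA) had ratios above 0. The medians of these 7 genes were 0.09 and 0.11. With the trend removed these medians were -0.07 and 0.04, so the first changed sign. SERPINH1, the collagen chaperone HSP47, had 17228, 19652 and 20463 counts and log2 ratios of 0.09 (-0.07 with the trend removed) and 0.20 (0.10). PCOLCE had 0.16 and 0.11, both below 0 with the trend removed (-0.10 and -0.08). P3H1, a prolyl 3-hydroxylase, stood at 16.0, 17.9 and 17.7 FPKM, with ratios of 0.15 and 0.14 that were 0.11 and 0.13 with the trend removed. BMP1, the procollagen C-proteinase, stood at 9.96, 10.6 and 10.8 FPKM, and its counting interval with IRF3 siRNA included 1 (0.995 to 1.13). Its log2 ratios were 0.08 and 0.10 (0.02 and 0.12 with the trend removed).

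The lysyl hydroxylases, which prepare collagen for crosslinks, split. PLOD2, the form that acts on the collagen telopeptides, had 918, 611 and 627 counts, or 5.32, 3.31 and 3.53 FPKM. The log2 ratios were -0.55 with IRF3 siRNA (count ratio 0.621, interval 0.560 to 0.689) and -0.48 with YAP siRNA (0.662, 0.597 to 0.734), and -0.35 and -0.30 with the trend removed. PLOD1 stood at 49.1, 50.9 and 54.3 FPKM (0.05 and 0.14, with -0.10 and 0.04 when the trend was removed). PLOD3 stood at 40.2, 46.3 and 40.7 FPKM, highest with IRF3 siRNA at a log2 ratio of 0.20 (count ratio 1.15, interval 1.11 to 1.2), which was 0.04 with the trend removed. PLOD2, at 36.1%, had the lowest GC content of the 3 (58.1% in PLOD1 and 60.0% in PLOD3).

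Lysyl oxidases crosslink collagen and elastin outside the cell. LOX stood at 16.7, 13.5 and 13.4 FPKM, with count ratios of 0.811 (0.760 to 0.866) and 0.801 (0.749 to 0.856). The log2 ratios of LOX were -0.28 and -0.30, and -0.13 and -0.20 with the trend removed. LOXL1 stood at 32.5, 36.6 and 31.8 FPKM and LOXL2 at 31.2, 32.5 and 30.5. Both were highest with IRF3 siRNA (log2 ratios 0.17 and 0.06) and near control with YAP siRNA (-0.03 and -0.03), but with the trend removed all 4 values were below 0 and with TMM-scaled counts all were above. The count ratios were 1.13 (1.07 to 1.19) and 0.979 (0.928 to 1.03) for LOXL1, and 1.04 (1 to 1.09) and 0.981 (0.939 to 1.02) for LOXL2.

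Of the proteases, MMP2, a gelatinase, stood at 28.6, 23.8 and 25.2 FPKM, with count ratios of 0.832 (0.789 to 0.877) and 0.883 (0.837 to 0.931). MMP14, which activates the MMP2 proenzyme at the membrane, stood at 72.7, 71.1 and 69.5 FPKM, with log2 ratios of -0.03 and -0.07 that were above 0 with TMM-scaled counts and at -0.23 and -0.21 with the trend removed, and count ratios of 0.977 (0.944 to 1.01) and 0.955 (0.921 to 0.99). ADAMTS1 stood at 1.15, 0.973 and 1.05 FPKM, and its counting intervals included 1 (0.681 to 1.06 and 0.740 to 1.14). The log2 ratios of ADAMTS1, -0.12 and -0.06, were above 0 with the trend removed (0.12 and 0.15). The inhibitors differed among themselves on the deposited scale. TIMP2 stood at 44.2, 38.9 and 40.9 FPKM (count ratios 0.879, interval 0.847 to 0.912, and 0.926, 0.892 to 0.961), and TIMP3, which binds the matrix itself, at 30.1, 23.2 and 24.8 (count ratios 0.771, interval 0.721 to 0.824, and 0.822, 0.769 to 0.879). TIMP1 stood at 31.7, 35.5 and 35.2 FPKM, above control in both libraries (log2 ratios 0.16 and 0.15, count ratios 1.12, interval 1.03 to 1.22, and 1.11, 1.02 to 1.21), with values of -0.11 and -0.08 when the trend was removed. With the trend removed TIMP2 had -0.21 and -0.14 and TIMP3 -0.33 and -0.28. All 3 inhibitors were then below 0 in both comparisons, beside 53.0% (IRF3 siRNA) and 51.8% (YAP siRNA) of all genes. TIMP2 had the highest level of the 3 in every library and TIMP3 the lowest.

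In the direct comparison, 0 of the 38 genes passed 2-fold in either direction, beside 0.315% lower and 0.297% higher among all genes. None passed 1.5-fold, beside 1.28% and 1.18%. Ratios were below 0 for 19 genes, where 51.8% of all genes were, and for 27 with the trend removed, where 52.4% were. Counting intervals of 12 genes lay below 1 (lower with IRF3 siRNA), beside 15.6% of all genes, and of 8 genes above 1, beside 16.0%. After FSTL1 at 0.38 the highest ratios were those of LOXL1 (0.20), PLOD3 (0.18) and AGRN (0.17). POSTN and BGN, each at -0.26, and MFAP4 (-0.21) had the lowest. LAMA2 (-0.18, interval of the count ratio 0.779 to 0.951), LAMC1 (-0.19), LAMB1 (-0.18) and FN1 (-0.18) stood slightly lower with IRF3 than with YAP siRNA. Against control the counting intervals of 23 genes lay below 1 and of 9 above it with IRF3 siRNA, beside 32.6% and 24.3% of all genes. With YAP siRNA these numbers were 22 and 8, beside 30.2% and 22.2%. Counting intervals narrow as counts rise, so in all 3 comparisons these shares of all genes are not a like baseline. The 38 genes had a median level of 25.9 FPKM and a median exon length of 6.82 kb, beside 4.64 FPKM and 4.13 kb over all genes tested.

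The ratios went with properties of the genes. Across the 38 genes Spearman's rho between the log2 ratio and exon length was -0.52 for IRF3 siRNA and -0.60 for YAP siRNA, and between the ratio and GC content 0.73 and 0.64. Over 11066 genes with a length and a GC content these were -0.34 and -0.37, and 0.41 and 0.28. Between the ratio and the mean FPKM, rho was 0.51 and 0.53 across the 38 genes and 0.29 and 0.29 over the 11066. Genes within a library share its preparation and are not replicates. The measured structural and adhesive genes had a median exon length of 8.94 kb and a GC content of 50.4%, the enzymes, chaperones and inhibitors 5.59 kb and 58.0%, and all genes tested 4.13 kb and 51.3%. In the same order, the median levels were 11.5, 32.5 and 4.64 FPKM. A joint fit on the 3 properties level, length and GC content took up 23.3% of the variance over all genes for IRF3 siRNA, 19.0% for YAP siRNA and 3.34% between the siRNA libraries. With that trend removed, 31 and 29 of the 38 ratios were below 0, beside 53.0% and 51.8% of all genes. The medians were -0.14 and -0.16, beside -0.02 and -0.01 over all genes, with structural and adhesive genes at -0.20 and -0.17. LAMA2 (-0.78 and -0.63) and LAMC1 (-0.61 and -0.44) had the lowest values of the laminins.

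**Figure D4:**
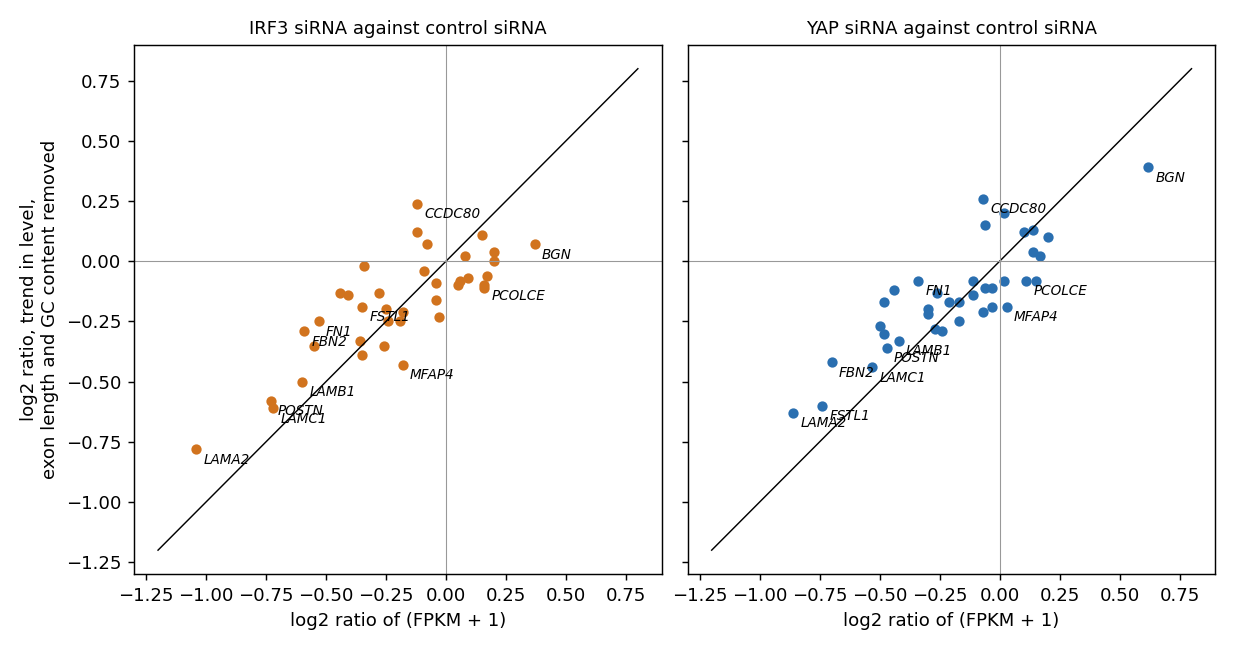
Log2 ratio of FPKM plus 1 to control (horizontal) against the same ratio after removal of its trend in level, exon length and GC content (vertical) for the 38 genes, with IRF3 siRNA on the left and YAP siRNA on the right. Points on the diagonal have equal values. LAMA2 moved from -1.04 to -0.78 and from -0.86 to -0.63, and BGN from 0.37 to 0.07 and from 0.62 to 0.39.

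A wider list of 78 other matrix genes, which shares no member with the set, had 39 measured. None passed 2-fold in either comparison with control. Of all genes, 0.612% were lower and 0.387% higher with IRF3 siRNA, and 0.468% and 0.351% with YAP siRNA. The medians of the list were 0.00 (IRF3 siRNA) and -0.04 (YAP siRNA). Ratios below 0 numbered 20 (51.3%) and 22 (56.4%), beside 53.9% and 53.4% of all genes. With the trend removed the medians of this list were -0.09 and -0.02. Then 27 (69.2%) and 20 (51.3%) of 39 were below 0, beside 53.0% and 51.8% of all genes. P4HA1, the catalytic subunit of the main prolyl 4-hydroxylase, stood at 69.2, 37.4 and 49.9 FPKM, with log2 ratios of -0.87 and -0.46 (-0.85 and -0.50 with the trend removed). CRTAP, which forms a prolyl 3-hydroxylation complex with P3H1 and PPIB, stood at 59.4, 39.7 and 52.9 FPKM (-0.57 and -0.16), and NPNT, nephronectin, at 2.62, 1.47 and 1.72 (-0.55 and -0.41, with -0.34 and -0.24 when the trend was removed). MMP16 (-0.52, or -0.20 with the trend removed) and PXDN, peroxidasin (-0.44, or -0.29), were the other low ones with YAP siRNA. PPIB, a prolyl isomerase, stood at 189, 223 and 238 FPKM (0.24 and 0.33, with -0.02 and 0.10 when the trend was removed). With it the highest were COMP (0.36, or 0.19 with the trend removed) and FSTL3 (0.25, or 0.04) with IRF3 siRNA. With YAP siRNA they were THBS4 (0.34, or 0.42) and P4HB (0.28, or 0.17). So within the complex of P3H1, CRTAP and PPIB, CRTAP stood below control in both libraries while P3H1 and PPIB stood above it on the deposited scale.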

How the data were processed

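Per the file headers, the authors deposited raw counts and FPKM for every library. The submitters' processing notes name TopHat2 version 2.0.9 and the build hg38. For the gene counter, strandedness and annotation, nothing is given in the labels. The deposited FPKM were checked against the deposited counts: 100% of 45223 values lay within 1% of the count scaled by a gene length and the column total.

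Log2 ratios were computed from FPKM plus a pseudocount of 1, over the 11103 genes with a mean of at least 1 FPKM. Members were read from this table. Count ratios, scaled by library totals, carry exact binomial (Clopper-Pearson) 95% intervals for counting error only. PCR copies are not independent molecules. GENCODE release 29 (hg38) gave exon length as the union of exons, GC content over transcripts, and shared exons. The trend was an additive spline fit with 4 degrees of freedom each for level, length and GC content, over 11066 genes. TMM scaling used edgeR 4.0.16 in R 4.3.3, as CPM plus 1. Splines came from patsy 1.0.2 and intervals from scipy 1.17.1, in Python 3.11.15. The scripts were tested on simulated data.

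The naming rule allowed every member, asked for count ratios of those past 1.5-fold and of the 3 largest ratios in each role group (printed here or drawn in the plot of count ratios), and of the other matrix genes the 3 largest ratios in each direction were named. Members and lists were chosen with earlier results of these data known.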

Additional observations from a re-analysis of the deposited data

How the results depend on the processing

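Each value was recomputed after each of these changes: pseudocount 0.1, a minimum of 5 FPKM or none, a 3-fold threshold, TMM-scaled counts, centring on the median gene, removal of the trend described above, and summing of overlapping genes. The single member lower by 2-fold with IRF3 siRNA, LAMA2, gave a count of 0 at 3-fold and 0 with the trend removed, and of 1 under the other 6 settings. The median with IRF3 siRNA was -0.08 with no filter, which adds 18 genes near 0. It ran from -0.19 to -0.08 over the settings, and the YAP siRNA median from -0.16 to -0.05. TMM scaling raised the median of all genes by 0.09 and 0.08. At 1.5-fold the members lower with IRF3 siRNA numbered 8 with a pseudocount of 0.1 (11.8% of all genes at that setting), 3 when centred (5.09%), 3 when overlapping genes were summed (5.43%) and 2 with the trend removed (2.81%), against 5 (5.88%). With YAP siRNA they numbered 6 with that pseudocount (9.68%), 2 with the 5 FPKM filter (2.87%) and 2 with the trend removed (2.73%), against 3 (4.64%). Removing the trend changed the sign of 10 members (IRF3 siRNA), 6 (YAP siRNA) and 8 (direct comparison), and TMM scaling of 3, 4 and 0. Over all genes, 2-fold calls with IRF3 siRNA numbered 43 higher and 68 lower, against 96 and 284 (pseudocount 0.1), 11 and 30 (5 FPKM), 13 and 12 (3-fold), 58 and 155 (TMM), 22 and 55 (summed) and 36 and 42 (trend removed). With YAP siRNA they numbered 39 and 52, against 106 and 240, 18 and 18, 9 and 8, 50 and 134, 26 and 41 and 32 and 38 in the same order, and 55 and 79 with no filter. In the direct comparison they numbered 33 and 35, against 84 and 79, 12 and 15, 17 and 14, 43 and 33, 12 and 20 and 31 and 33. Of the recomputed ratios of single members, 114 moved further than the mean reach of their counting interval to either side on the log2 scale. The other 456 did not. A switch of direction was looked for only where the reported ratio passed 2-fold. That was LAMA2 with IRF3 siRNA alone, and it kept its direction. The causes of these shifts were not tested. No paired analysis was possible because each group has 1 library. Depth limits most of the 18 members under the filter, but the counting intervals of FBN1 in both comparisons with control, NID1 with IRF3 siRNA and EFEMP2 with YAP siRNA lay below 1.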

Other observations

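Matrix receptors, not only those of the proteins of this set, were followed as a list of 25 genes, of which 16 were measured. Their medians were -0.16 (IRF3 siRNA) and -0.12 (YAP siRNA) (-0.01 and -0.05 with the trend removed). SDC3, a cell-surface heparan sulfate proteoglycan, stood at 7.49, 4.08 and 3.78 FPKM in the control, IRF3 siRNA and YAP siRNA libraries. Its count ratios to control were 0.545 (counting interval 0.488 to 0.608) and 0.504 (0.449 to 0.565), and its log2 ratios with the trend removed were -0.77 and -0.79. ITGA6, a laminin-binding integrin chain, stood at 2.08, 0.895 and 1.22 FPKM, with count ratios of 0.430 (0.350 to 0.525) and 0.586 (0.486 to 0.704). The log2 ratios of ITGA6 were -0.70 and -0.47, and -0.43 and -0.25 with the trend removed. ITGB1, the beta chain that most matrix integrins share, stood at 16.3, 10.7 and 12.9 FPKM, with log2 ratios of -0.56 and -0.32 (-0.39 and -0.19 with the trend removed). ITGA5, the fibronectin-binding alpha chain, stood at 33.7, 44.7 and 33.8 FPKM, higher with IRF3 siRNA (log2 ratio 0.40, or 0.35 with the trend removed) and near control with YAP siRNA (0.01). These genes were named after their values were seen.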
